A study of Mus musculus with 6 samples.

Results

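The genes described here were 40 factors of ribosome building, 7 of them genes of RNA polymerase I (Pol I) and its initiation factors. They were chosen as a list of symbols, which was mapped through the GENCODE M21 annotation to the Ensembl identifiers in the files. All 40 were among the 14548 genes listed, and all 40 were among the 10837 genes that reached 1 FPKM in at least 1 library and were therefore tested. FPKM is the number of fragments on a gene, scaled by the length of its exons in kilobases and by the mapped fragments of the library.

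The data were mRNA profiles of C2C12, a mouse line of skeletal muscle myoblasts, in 3 libraries labelled WT and 3 labelled MSTN-KO. The MSTN-KO cells were the line C11, in which exon 3 of the myostatin gene was cut with a Cas9 plasmid delivered by electroporation, so the whole MSTN-KO group was 1 edited line. C11 is also the strain that the labels name for WT, and no source says that the 3 libraries of a group came from separate cultures, so p-values measured the spread between these libraries alone. The comparison asked which transcripts differed between the WT libraries and those of the edited line, for which the paper reports no myostatin protein by Western blot. Loss of myostatin and other differences of that line cannot be told apart here.

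FPKM of Mstn itself was 0.0211, 0 and 0.0399 in WT replicates 1 to 3, and 0.0269, 0.0586 and 0.0390 in MSTN-KO replicates 1 to 3. These levels were too low to check the genotype labels. The summed FPKM of all genes was 723705 to 764524 in the WT libraries and 856314 to 999579 in the MSTN-KO libraries, so values are relative within each library. Relative depth, read from genes under 0.1 FPKM, was 0.859 to 1.11 times that of WT replicate 1, and absolute depth is unknown. Of the cell markers, 7 myoblast genes summed to 972 to 1383 FPKM in WT and 613 to 755 in MSTN-KO. Most of the sum was Des, Itga7 and Myod1, which were lower in MSTN-KO at an adjusted p under 0.05. Pax7 was higher at that threshold, and of the 7 genes 2 were higher and 5 lower in mean. The summed level of 24 genes of differentiating muscle was 1749, 1811 and 752 FPKM in the 3 WT libraries and 209, 269 and 298 in the 3 MSTN-KO libraries. Of the 22 of these that were tested, 21 were lower in MSTN-KO at an adjusted p under 0.05. The 19 proliferation genes summed to 1613, 1644 and 1964 FPKM in WT and to 1676, 1665 and 2036 in MSTN-KO. Of these 19 genes, 10 were higher and 9 lower in mean, with Mcm5 called higher and Ccnb1 called lower. Adipocyte markers summed to at most 9.94 FPKM in any library, macrophage markers to at most 2.45 and endothelial markers to at most 0.167, while 6 fibroblast genes, which myoblasts in culture can also express, summed to 357 to 493 FPKM in WT and 553 to 619 in MSTN-KO. That sum was mostly Col3a1 and Col1a2, and of the 5 fibroblast genes tested Col3a1 was called higher and Postn and Dcn lower. The part of differentiation state in the results below was not tested, and in these bulk samples fewer cells of a kind and less RNA per cell cannot be told apart.

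Ribosomes are assembled mainly in the nucleolus. Pol I transcribes the long precursor of the ribosomal RNAs, small nucleolar ribonucleoproteins (snoRNPs) guide its methylation and pseudouridylation, and processing factors cut and fold it into the small and the large subunit. The transcription factor Myc is known to drive many of these genes, and proliferating myoblasts make more ribosomes than resting muscle cells do. The libraries held mRNA of the factors. The ribosomal RNA itself was not measured here.

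Myc is known to bind the E-box CACGTG, which reads the same on both strands. RefSeq promoter windows, from 250 bases before to 50 bases after a start site, were at hand for 34 of the 40 genes. The site was the start of the RefSeq gene record in the first window of 25 of the 34, and distances below are counted from the window's own start site, which can differ from the GENCODE gene start. The letters CACGTG occurred in the windows of 7 of these 34 genes (20.6%), against 12% of the 8455 tested genes with a window and 7.15% of all 32851 windows. The 8 matches are shown because they are the sequences in this family that bear on its best known regulator. Each is given on the gene's strand with the flanking bases, the motif in capitals and the position on GRCm38.p6.
Nop2, chr6:125131811-125131840, plus strand: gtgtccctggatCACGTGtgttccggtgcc
Pes1, chr11:3963965-3963994, plus strand: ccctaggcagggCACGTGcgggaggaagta
Mybbp1a, chr11:72441355-72441376, plus strand: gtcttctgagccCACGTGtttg
Tsr1, chr11:74898092-74898121, plus strand: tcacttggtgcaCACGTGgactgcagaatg
Utp18, chr11:93885769-93885798, minus strand: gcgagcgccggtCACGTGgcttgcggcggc
Rrn3, chr16:13780472-13780501, plus strand: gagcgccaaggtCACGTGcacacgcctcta
Rrn3, chr16:13780639-13780668, plus strand: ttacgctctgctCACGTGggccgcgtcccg
Wdr43, chr17:71616220-71616249, plus strand: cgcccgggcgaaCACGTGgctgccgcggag

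The motif began 60 bases before the start site of the window in Nop2, 20 in Utp18 and 215 and 48 in Rrn3, and 2 to 40 bases after it in Pes1, Wdr43, Tsr1 and Mybbp1a. The 7 genes with the motif had a median log2 fold change of 0.21 between MSTN-KO and WT (5 higher, 2 lower). The 27 genes whose windows lacked it had a median of 0.24 (18 higher, 9 lower). A match describes letters in a window and is not evidence of binding.

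Across the 40 genes, 29 had a higher and 11 a lower mean in MSTN-KO than in WT. The log2 fold changes, on the scale log2(FPKM + 1), ran from -0.59 to 0.57 with a median of 0.22, beside a median of -0.00078 over all tested genes. In the limma fit over all 10837 genes with Benjamini-Hochberg adjustment, 5 of the 40 (12.5%) were upregulated at an adjusted p under 0.05 (Nop56, Fbl, Polr1a, Nop10 and Mybbp1a), where the same was true of 8.78% of all tested genes. Downregulation was called for 1 of the 40 (2.5%), Gnl3, against 8.96% of all tested genes. Neither share is read here as particular to these genes. In 14 of the 40 genes (35%) every MSTN-KO library was above every WT library, against 19.3% of all tested genes, and in 1 gene (2.5%), Nop16, every MSTN-KO library was below, against 18.1%. The study's own criteria were an unadjusted p under 0.05 with a log2 fold change above 1 or below -1. By these, limma called 0 of the 40. The share of all tested genes past these criteria is not given here, so the 0 is not read as particular to these genes. Of the 40, 16 (40%) had an unadjusted p under 0.05, as did 32.6% of all tested genes. The differences were small, with standard errors of 0.11 to 0.28 on the log2 scale.

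The sign of these values depended on how the libraries were scaled. When each library was scaled to the same sum, the median of all genes fell by 0.25 on the log2 scale and the median of the 40 genes was -0.05, with 15 higher, 25 lower, 0 called higher and 2 called lower (Nop16 and Gnl3) by limma and 0 and 7 at an unadjusted p under 0.05. Relative to the median of all genes, the position changed less. There were 29 of the 40 above that median in the FPKM as deposited and in every scaling tried except quantile normalization, where there were 27. With 1 library left out the number ranged from 23 (without WT replicate 1) to 32 (without WT replicate 3).

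**Figure D1:**
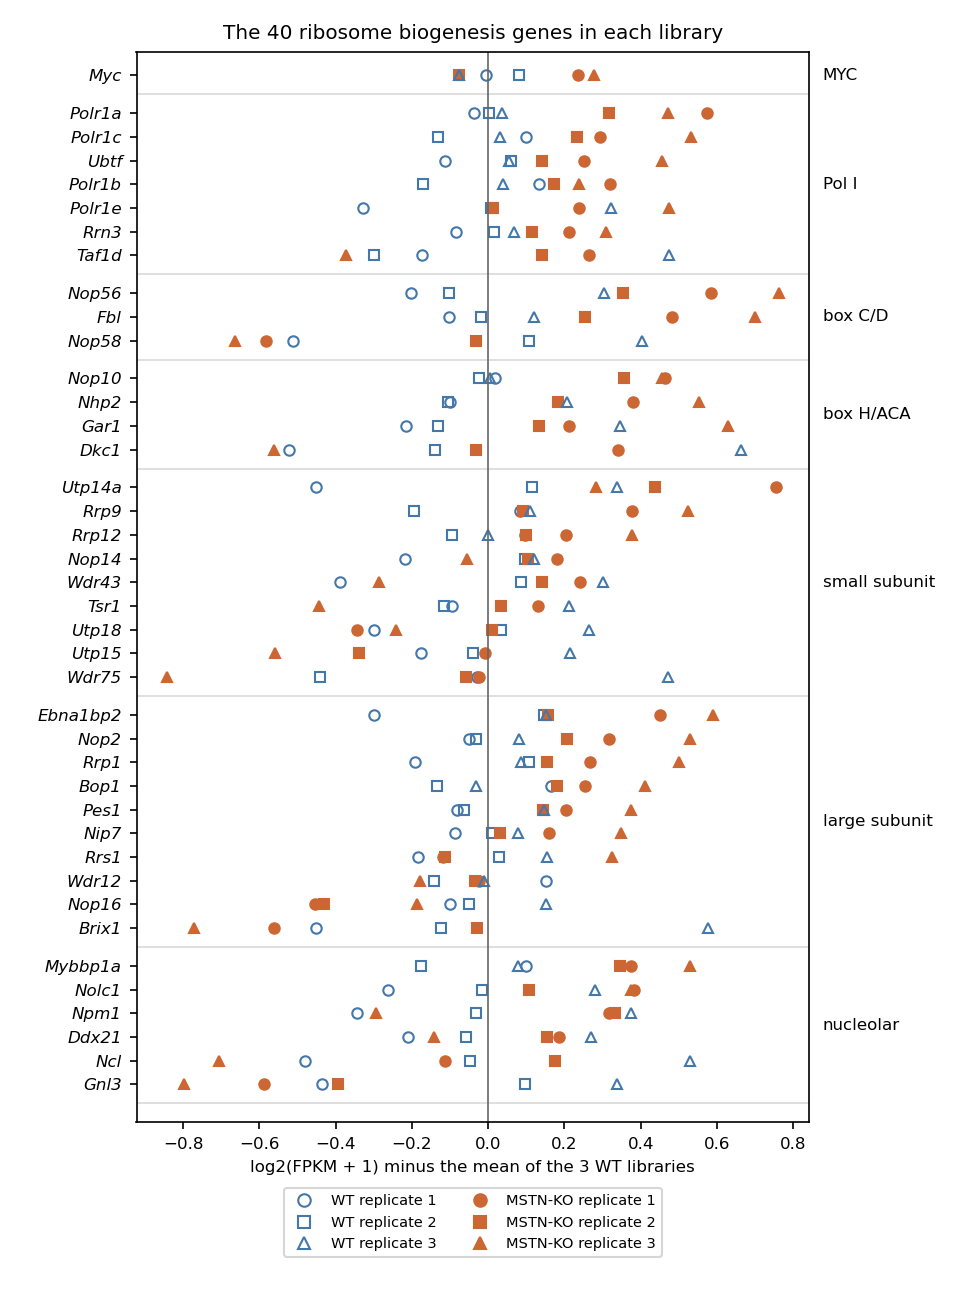
Each point is 1 library, placed by its log2(FPKM + 1) minus the mean of the 3 WT libraries (horizontal axis) for each of the 40 genes, grouped by role (vertical axis); open blue marks are WT, filled orange marks MSTN-KO. In FPKM as deposited, the MSTN-KO marks lie right of all WT marks in 14 genes, among them Polr1a, Fbl, Nop56, Nop10 and Mybbp1a, and left of all of them only in Nop16; scaled to equal sums, 25 of the 40 genes have a lower MSTN-KO mean.

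Myc (ENSMUSG00000022346, chromosome 15, 61985391 to 61990374, plus strand), the regulator at the head of the list, did not pass the test. Its FPKM was 31.8, 33.8 and 30.2 in WT against 37.7, 30.2 and 38.9 in MSTN-KO. MSTN-KO replicates 1 and 3 were above all WT libraries and replicate 2 was level with the lowest. The log2 fold change was 0.14 with a standard error of 0.13 and a 95% confidence interval from -0.15 to 0.44 (limma, adjusted p = 0.479), and it was -0.13 when libraries were scaled to equal sums.

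All 7 genes of Pol I and its initiation factors among the 40 had a higher mean in MSTN-KO in the FPKM as deposited. Their median log2 fold change was 0.24, and 1 of the 7 passed the test. Other genes of Pol I, described below, went both ways. Polr1b, Polr1e, Rrn3 and Taf1d turned lower when libraries were scaled to equal sums. Polr1a (ENSMUSG00000049553, GRCm38 chromosome 6, 71909053 to 71984935, plus strand) encodes the largest, catalytic subunit of Pol I. It was at 13.9, 14.3 and 14.7 FPKM in WT and at 21.7, 18.03 and 20.2 FPKM in MSTN-KO. The 3 WT libraries lay close together and every MSTN-KO library was above them. The log2 fold change was 0.45 with a standard error of 0.13 (limma, adjusted p = 0.0297).

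The other polymerase subunits differed by less. Polr1c, a subunit that Pol I shares with Pol III, was at 69.9, 59.3 and 66.6 FPKM in WT and at 80.1, 76.7 and 94.6 in MSTN-KO, without overlap, and its log2 fold change of 0.35 had an adjusted p of 0.0756 (limma). Polr1b, the second-largest subunit, was at 9.13 to 11.5 FPKM in WT and 11.9 to 13.3 in MSTN-KO, so that the log2 fold change was 0.24. Polr1e, which with its partner subunit binds initiation factors, overlapped between the groups (10.0 to 16.3 against 12.9 to 18.2 FPKM). Among the factors that bring Pol I to the ribosomal genes, Ubtf, which shapes their chromatin, was at 38.5 to 43.5 FPKM in WT and 46.1 to 57.7 in MSTN-KO. Rrn3, which links Pol I to the promoter, was at 31.0 to 34.5 FPKM in WT and 35.7 to 40.9 in MSTN-KO. Neither group of values overlapped, and the log2 fold changes of 0.28 and 0.21 had adjusted p-values of 0.148 and 0.248 (limma). Taf1d, a subunit of the promoter selectivity factor, spread over 7.21 to 13.1 FPKM in WT and 6.81 to 11.1 in MSTN-KO, with a log2 fold change of 0.01.

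The box C/D snoRNP methylates ribosomal RNA, and 2 of the 3 of its core genes among the 40 were upregulated. Its other core gene, Snu13, was counted with the snoRNP assembly factors. The log2 fold change of Snu13 was 0.11 (limma, adjusted p = 0.564). Fbl (ENSMUSG00000046865, chromosome 7, 28169710 to 28179269, plus strand), the methyltransferase fibrillarin, was at 156.5, 166.1 and 182.9 FPKM in WT and at 235.5, 200.7 and 273.7 FPKM in MSTN-KO. Nop56 (ENSMUSG00000027405, chromosome 2, 130274430 to 130279313, plus strand), a scaffold protein of the same particle, was at 123.8, 132.7 and 176.2 FPKM in WT and at 214.3, 182.4 and 242.4 FPKM in MSTN-KO. In both genes all MSTN-KO libraries were above all WT libraries, for Nop56 by a narrow margin between WT replicate 3 and MSTN-KO replicate 2. The log2 fold changes were 0.48 with a standard error of 0.14 for Fbl (limma, adjusted p = 0.0297) and 0.57 with a standard error of 0.16 for Nop56 (limma, adjusted p = 0.0241), the latter being the highest value among the 40. Nop58, the other scaffold protein, was lower in mean, at 38.2, 59.2 and 73.0 FPKM in WT and 36.4, 53.7 and 34.3 FPKM in MSTN-KO. Its groups overlapped widely, and its log2 fold change of -0.43 with a standard error of 0.22 did not pass the test (limma, adjusted p = 0.192).

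The ratio of Nop56 to Nop58, whose products pair in 1 particle, was therefore 3.24, 2.24 and 2.41 in the WT libraries and 5.89, 3.40 and 7.08 in the MSTN-KO libraries. The ratio of Fbl to Nop58 was 4.09, 2.80 and 2.51 in WT and 6.48, 3.74 and 7.99 in MSTN-KO. The Nop56 ratios did not overlap between the groups, and the Fbl ratios did, since MSTN-KO replicate 2 was below WT replicate 1. A ratio within a library does not change when the whole library is scaled by a single factor. Quantile normalization and a correction for length and GC content are not of that kind. Nop58 is on chromosome 1 and has a GC content of 42.0%, against 50.2% for Nop56 and 54.3% for Fbl. After the correction for length and GC content the log2 fold changes were -0.19 for Nop58, 0.57 for Nop56 and 0.44 for Fbl. The pairs with Nop58 were picked after their values were seen and were given no test.

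The box H/ACA snoRNP converts uridine to pseudouridine and its proteins also sit in telomerase. Of its 4 core genes 3 had a higher mean and 1 of them, Nop10 (ENSMUSG00000027133, chromosome 2, 112261926 to 112263269, plus strand), passed the test. Nop10 was at 71.7, 69.5 and 71.0 FPKM in WT and at 97.9, 90.9 and 97.4 FPKM in MSTN-KO. Both groups were tight and well apart. The log2 fold change of 0.43 had the smallest standard error of the 40, 0.11 (limma, adjusted p = 0.0215). Nhp2 was at 228.5 to 284.2 FPKM in WT and 279.7 to 361.7 in MSTN-KO, so that the log2 fold change was 0.37 with an adjusted p of 0.0835 (limma). Gar1 was at 41.1 to 61.1 FPKM in WT and 52.5 to 74.5 in MSTN-KO, with overlap. Dkc1, the pseudouridine synthase dyskerin, had the largest standard error of the 40 genes. It was at 6.72, 9.06 and 16.6 FPKM in WT and 13.03, 9.84 and 6.51 in MSTN-KO, and its log2 fold change was -0.09 with a standard error of 0.28 (limma, adjusted p = 0.855).

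**Figure D2:**
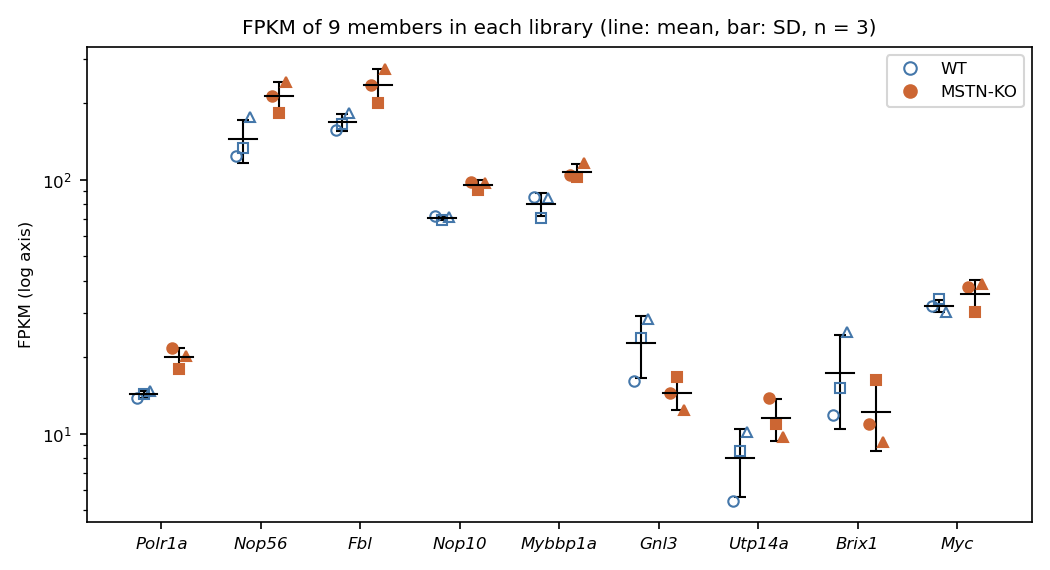
FPKM on a log axis for 9 of the 40 genes in each WT (open) and MSTN-KO (filled) library (circle, square and triangle for replicates 1, 2 and 3), with the mean as a line and the SD as a bar, n = 3 per group. The groups stand apart in Polr1a, Nop56, Fbl, Nop10 and Mybbp1a and overlap in Gnl3, Utp14a, Brix1 and Myc.

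Of the 9 small subunit factors, 5 were higher and 4 lower in mean, with a median log2 fold change of 0.03, and limma called 0 of the 9, with 2 at an unadjusted p under 0.05. Utp14a (ENSMUSG00000063785, chromosome X, 48256862 to 48282453, plus strand), which acts on the helicase that strips the U3 snoRNA from the pre-ribosome, had the largest difference of the group. It was at 5.44, 8.54 and 10.1 FPKM in WT and at 13.9, 10.9 and 9.72 FPKM in MSTN-KO. MSTN-KO replicates 1 and 2 were above all WT libraries and replicate 3 was within their range. The log2 fold change was 0.49 with a standard error of 0.20 (limma, adjusted p = 0.106), and 11.5% of the exonic bases of Utp14a are also exons of a gene on the opposite strand.

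Rrp9, a protein of the U3 snoRNP, was at 32.7 to 40.7 FPKM in WT and 40.1 to 54.5 in MSTN-KO, so that the log2 fold change was 0.33. Rrp12, a factor for export of the small subunit, was at 11.4 to 13.2 FPKM in WT and 13.2 to 16.2 in MSTN-KO. In Rrp12 the groups did not overlap, although MSTN-KO replicate 2 exceeded WT replicate 1 by little. Of the subcomplex that first meets the nascent precursor, 3 proteins were among the 40, Wdr43, Wdr75 and Utp15. Wdr43 had a log2 fold change of 0.03, Wdr75 of -0.31 and Utp15 of -0.30, and none of them passed the test. Its members Utp4 (0.44), Heatr1 (-0.50) and Nol11 (0.07) were counted with the other small subunit factors described below. Among those, Utp4 passed the test (limma, adjusted p = 0.0467), and Heatr1 and Nol11 did not. Nop14 (0.08), Utp18 (-0.19) and Tsr1 (-0.09) stayed within 0.2 of zero on the log2 fold change scale. For Tsr1, a late small subunit factor, 32.3% of the exonic bases are also exons of Srr on the opposite strand, and the sources used here do not say whether strand was used in counting.

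Among the 10 large subunit factors 7 were higher and 3 lower in mean, with a median log2 fold change of 0.21. Limma called 0 of the 10, while 5 had an unadjusted p under 0.05. In Bop1, Nop2, Rrp1 and Ebna1bp2 every MSTN-KO library was above every WT library, and in Nop16 every one was below. Bop1, a member of the complex it forms with Pes1 and Wdr12, was at 87.35 to 107.6 FPKM in WT and 108.9 to 128.0 in MSTN-KO, and lost its direction at equal library sums (-0.0014). Nop2, which methylates cytosine in the large subunit RNA, was at 47.2 to 51.8 FPKM in WT and 56.6 to 71.0 in MSTN-KO, so that the log2 fold change was 0.35 with an adjusted p of 0.0738 (limma). Ebna1bp2 was at 33.8 to 46.5 FPKM in WT and 46.7 to 63.4 in MSTN-KO, and Rrp1 at 96.3 to 118.7 and 122.8 to 156.3. The gap between the groups was narrow in Bop1 and Ebna1bp2.

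Nop16 ran the other way. It was at 106.9, 110.7 and 127.3 FPKM in WT and at 83.5, 84.8 and 100.5 FPKM in MSTN-KO, and its log2 fold change was -0.36 with a standard error of 0.13 (limma, adjusted p = 0.0726). Brix1 (ENSMUSG00000022247, chromosome 15, 10474779 to 10485947, minus strand), a nucleolar assembly factor of the large subunit, had the largest difference in size of the group but did not pass the test. It was at 11.9, 15.1 and 25.2 FPKM in WT and at 10.9, 16.2 and 9.29 FPKM in MSTN-KO, so that MSTN-KO replicate 2 was above 2 of the 3 WT libraries. Its log2 fold change was -0.45 with a standard error of 0.24 (limma, adjusted p = 0.213). Pes1 (0.24), Nip7 (0.18), Rrs1 (0.03) and Wdr12 (-0.08) overlapped between the groups, and Nop16, Brix1 and Wdr12 were the 3 that were lower in mean.

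Among the 6 nucleolar proteins with several roles, 4 were higher and 2 lower in mean, with 1 call in each direction. Mybbp1a (ENSMUSG00000040463, chromosome 11, 72441355 to 72451768, plus strand), a nucleolar protein that binds Pol I and p53, was at 85.8, 70.8 and 84.6 FPKM in WT and at 104.2, 102.1 and 116.1 FPKM in MSTN-KO. Every MSTN-KO library was above every WT library. The log2 fold change was 0.42 with a standard error of 0.13 (limma, adjusted p = 0.0369). Gnl3 (ENSMUSG00000042354, chromosome 14, 31012433 to 31019152, minus strand), nucleostemin, a GTP-binding protein abundant in dividing stem and progenitor cells, was at 16.2, 23.8 and 28.4 FPKM in WT and at 14.5, 16.7 and 12.4 FPKM in MSTN-KO. The groups overlapped, since MSTN-KO replicate 2 was above WT replicate 1. The log2 fold change was -0.59 with a standard error of 0.19, the lowest of the 40 (limma, adjusted p = 0.0448). Gnl3 kept its call in 4 of 11 other settings, with an adjusted p from 0.0204 to 0.116.

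Npm1, Ncl and Ddx21 spread more within each genotype than their means differed between genotypes. Npm1, nucleophosmin, was at 330.5, 410.4 and 544.5 FPKM in WT and at 522.5, 528.7 and 342.1 FPKM in MSTN-KO. Ncl, nucleolin, was at 30.8, 41.9 and 63.0 FPKM in WT and at 40.02, 49.1 and 26.2 FPKM in MSTN-KO. In both genes replicate 3 was the highest of the WT libraries and the lowest of the MSTN-KO libraries. The helicase Ddx21 showed the same order within WT, from 31.0 to 43.7 FPKM, and was at 32.6 to 41.2 in MSTN-KO. Nolc1, a chaperone of snoRNPs, was at 23.0 to 34.0 FPKM in WT and 30.0 to 36.6 in MSTN-KO, so that the log2 fold change was 0.29 with an adjusted p of 0.213 (limma). Among annotated transcripts of other genes, Npm1 had 3 similar copies, Fbl 2, and Taf1d, Pes1 and Rrs1 1 each, so reads of these genes could be split between copies. A copy had at least 90% identity over at least 50% of the gene's longest coding transcript, so shorter or unannotated copies were not counted. Of these copies only 1, a copy of Npm1, was among the genes listed.

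None of the 6 calls held in each of the 6 fits that left out 1 library. Without WT replicate 2, and likewise without MSTN-KO replicate 1, limma called 0 of the 40 genes, with 6 and 7 higher and 3 and 2 lower at an unadjusted p under 0.05. Without MSTN-KO replicate 2, 9 were called higher and 2 lower. Without WT replicate 1, 2 were called higher and 2 lower, without WT replicate 3, 3 higher and 0 lower, and without MSTN-KO replicate 3, 1 higher and 1 lower. The calls over all tested genes also changed between these fits, with ranges given below, so the changes are not read as particular to the 40. The log2 fold changes of the 6 called genes kept their direction in all 6 of these fits. The range was 0.39 to 0.52 for Polr1a, 0.37 to 0.59 for Fbl, 0.47 to 0.72 for Nop56, 0.41 to 0.46 for Nop10, 0.33 to 0.47 for Mybbp1a and -0.81 to -0.42 for Gnl3.

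The libraries of 1 genotype differed from each other in a regular way across the 40 genes. Among the WT libraries replicate 3 was the highest in 30 of the 40 (75%), against 34.6% of all tested genes, and replicate 1 was the lowest in 27. The median deviation from the WT mean was -0.14, -0.04 and 0.15 on the log2 scale in WT replicates 1, 2 and 3 and 0.24, 0.14 and 0.32 in MSTN-KO replicates 1, 2 and 3. WT replicate 3 was also the WT library with the lowest summed level of differentiating muscle genes and the highest of proliferation genes, and the part of these in the order was not tested. The 40 genes made up 0.271%, 0.306% and 0.347% of the summed FPKM in WT and 0.311%, 0.303% and 0.278% in MSTN-KO, which overlap.

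The order of the MSTN-KO libraries split by the GC content of the transcripts, which ran from 40.1% to 58.7% with a median of 50.3%. In the 20 genes below that median, WT replicate 3 was the highest WT library in 18 and MSTN-KO replicate 3 the lowest MSTN-KO library in 15. In the 20 genes above it, MSTN-KO replicate 3 was the highest MSTN-KO library in 17 and MSTN-KO replicate 2 the lowest in 18. The WT order held in both sets. In the genes of higher GC content WT replicate 3 was the highest WT library in 12. WT replicate 1 was the lowest in 15 genes of lower and 12 of higher GC content. Over all tested genes, WT replicate 3 was the highest WT library in 52.6% of those of lower and 17.3% of those of higher GC content. The median deviation of MSTN-KO replicate 3 from the WT mean was -0.29 in the genes of lower GC content and 0.47 in those of higher GC content, a wider gap than in any of the other 5 libraries. Over all tested genes of lower GC content, MSTN-KO replicate 3 was the lowest MSTN-KO library in 56.7%, and of higher GC content the highest in 63.0%.

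**Figure D3:**
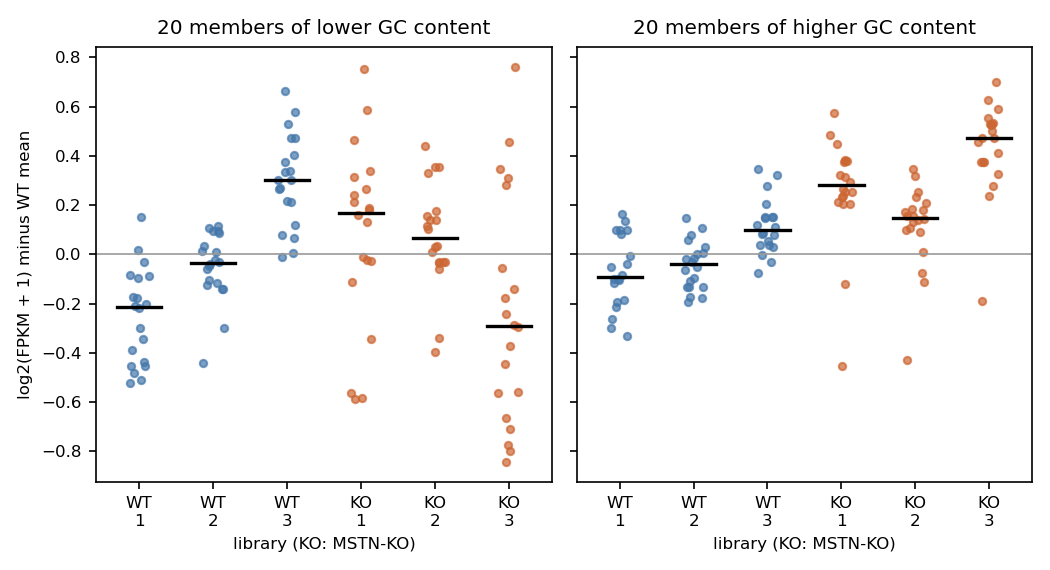
Deviation of each of the 40 genes from its WT mean, in log2(FPKM + 1), in the 6 libraries, for the 20 genes of lower (left) and the 20 of higher (right) GC content; the black line is the median of the library. MSTN-KO replicate 3 lies lowest on the left, with a median of -0.29, and highest on the right, with a median of 0.47.

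The fold changes followed the same property. Among the 20 genes of lower GC content 10 were lower in MSTN-KO, with a median log2 fold change of -0.03, and among the 20 of higher GC content 1 was lower, Nop16, with a median of 0.30. Over all tested genes the share lower in MSTN-KO was 63.6% below and 37.1% above that GC content, with medians of -0.10 and 0.11. Across the 40 genes the correlation of log2 fold change with GC content was 0.62 (Pearson) and 0.60 (Spearman), beside 0.31 (Spearman) across all tested genes. These are descriptions over genes that share the same 6 libraries. After each library was corrected for gene length and GC content, the median of the 40 genes was 0.22, 0.18 above that of all genes, and Polr1a, Fbl, Nop56, Nop10 and Mybbp1a were still called higher. Polr1c (0.26) and Utp14a (0.60) were then called as well, Nop16 was called lower, and Gnl3, at -0.41, was not called (limma, adjusted p = 0.0712).

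Position in the genome moved with the values too. Chromosomes 1, 13 and 14, which earlier results on these data had singled out, had median log2 fold changes of -0.25, -0.34 and -0.29 over their tested genes. The 8 genes of the list on them were Nop58, Wdr75, Wdr12, Rrs1 and Ncl on chromosome 1, Utp15 and Nop16 on chromosome 13 and Gnl3 on chromosome 14. Of these 8, 7 were lower in MSTN-KO, with a median of -0.31, while 80.8% of the 1404 tested genes on these chromosomes were lower, with a median of -0.28. Gnl3 and Nop16 were thus on chromosomes where most genes measured lower. Of the 32 genes on other chromosomes 4 were lower (Dkc1, Utp18, Tsr1 and Brix1), with a median of 0.26, beside 45.5% of 9433 tested genes and a median of 0.04. The 18 genes that were on other chromosomes and above the GC median were all higher in the FPKM as deposited, from 0.14 to 0.48, while 33.8% of the 4989 tested genes of the same kind were lower. Chromosome copy number was not measured here, and the part of chromosome and GC content in these differences was not separated by a test.

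**Figure D4:**
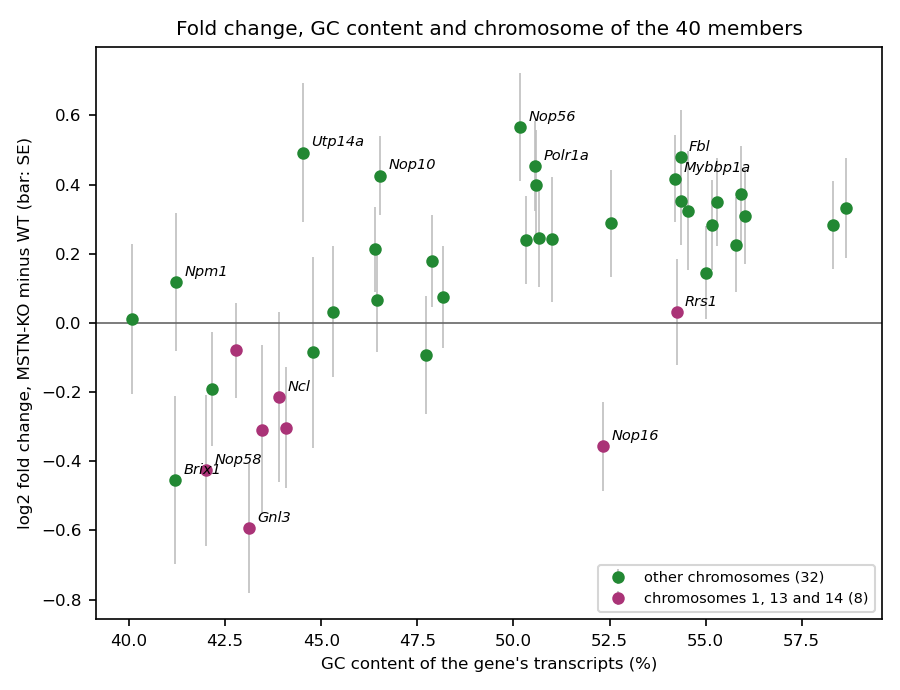
Log2 fold change between MSTN-KO and WT (vertical axis, bar: SE) against the GC content of the transcripts in percent (horizontal axis) for the 40 genes, in purple the 8 genes on chromosomes 1, 13 and 14 and in green the 32 on other chromosomes. In FPKM as deposited, 7 of the 8 purple points and 4 of the 32 green points lie below 0.

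The ratio between partners of 1 complex was also taken for pairs other than those with Nop58, again picked after the values were seen and given no test. The ratio of Bop1 to Wdr12 was 6.52, 6.57 and 6.40 in the WT libraries and 7.89, 7.57 and 9.90 in the MSTN-KO libraries, and that of Pes1 to Wdr12 was 3.38, 4.25 and 4.47 in WT and 4.70, 4.54 and 5.94 in MSTN-KO. Both were higher in every MSTN-KO library than in every WT library. Wdr12 is on chromosome 1 and has a GC content of 42.8%, against 58.3% for Bop1 and 50.3% for Pes1. After the correction for length and GC content the log2 fold changes of the trio lay closer together, at 0.20 for Bop1, 0.21 for Pes1 and 0.14 for Wdr12, from 0.28, 0.24 and -0.08 as deposited. Other pairs overlapped between the groups. The ratio of Polr1a to Polr1b was 1.20, 1.56 and 1.37 in WT and 1.64, 1.52 and 1.62 in MSTN-KO, and that of Nop10 to Dkc1 was 10.7, 7.67 and 4.29 in WT and 7.51, 9.23 and 14.97 in MSTN-KO.

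The wider pathway was described by 8 lists of other genes with the same functions, 174 tested genes in all. Their median log2 fold change was 0.08. In limma 11 of them were upregulated and 4 downregulated, lower shares than the 8.78% and 8.96% of all tested genes. Of 14 other genes of Pol I and its factors, 9 were higher and 5 lower in mean, with a median of 0.20. Among them Polr2l rose (0.55, limma, adjusted p = 0.0168) and Polr2h fell (-0.70, limma, adjusted p = 0.00485), both of which are small subunits shared by all nuclear RNA polymerases. Of 19 genes of Pol III, which makes the 5S RNA and transfer RNAs, limma called 0, with 5 at an unadjusted p under 0.05 and a median of -0.07.

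Of 45 other small subunit factors 3 rose, namely Wdr46 (0.46), Utp4 (0.44) and Emg1 (0.43), a methyltransferase for pseudouridine in the small subunit RNA, and none fell. Of 45 other large subunit factors Nop53 (0.64), Nle1 (0.54) and Ppan (0.44) rose, and the GTPase Gtpbp4 on chromosome 13 fell (-0.91, limma, adjusted p = 0.00942). Among 10 genes listed for snoRNP assembly, Snu13 included, the helicase subunit Ruvbl2 rose (0.41), and the list's median of 0.27 was the highest of the 8. Of 16 genes of the exosome, which trims the precursor, and other nucleases, the exosome subunit Exosc5 rose (0.62, adjusted p = 0.00453 in limma) and the helicase Mtrex on chromosome 13 fell (-0.76). Among 13 genes of the Myc network, Mycl, a relative of Myc, fell (-0.72), and limma called none higher, with 2 of the 13 at an unadjusted p under 0.05, both lower, and a median of -0.02. Of 12 genes of nucleolar surveillance and silencing, Rplp0 (0.59) and Rpl5 (0.42), both ribosomal proteins, rose. Of the genes in these lists on chromosomes 1, 13 and 14, 20 of 23 were lower in MSTN-KO (median -0.27), against 47 of 151 on other chromosomes (median 0.12).

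**Figure D5:**
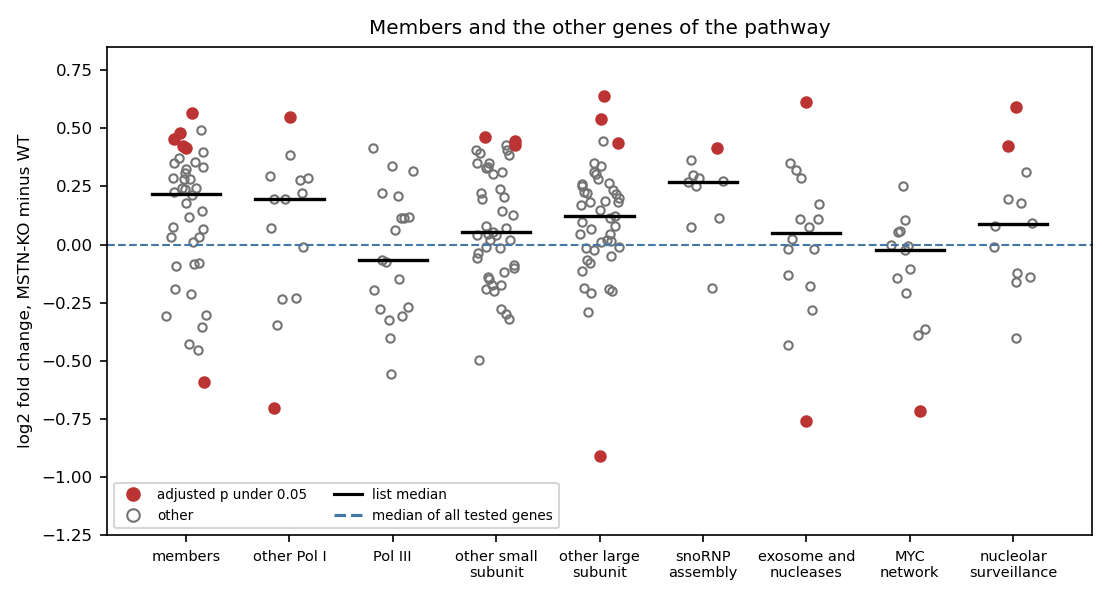
Log2 fold change between MSTN-KO and WT for the 40 genes and for the 8 lists of other pathway genes (horizontal axis); red points have an adjusted p under 0.05 in limma, black lines are list medians and the dashed line is the median of all tested genes. In FPKM as deposited, the median of the 40 genes is 0.22 and the list medians run from -0.07 for Pol III to 0.27 for snoRNP assembly.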

How the data were processed

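Libraries of 3 WT and 3 MSTN-KO samples of C2C12 were sequenced on an Illumina HiSeq system. The deposited values are FPKM, which the authors calculated for every gene, with each library in its own file and no pooling. The submitters' processing notes name Bowtie 0.12.2 and mm8, while the annotation, the counter, strand use and any gene filter are not given in the sources used here. Since FPKM does not keep the absolute depth, no counting error is given.

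Symbols, positions, exon length and GC content came from GENCODE M21 (GRCm38), which matched 14445 of 14548 identifiers, and promoters from RefSeq tables. The 10837 genes that reached 1 FPKM in any library were fitted as log2(FPKM + 1) with limma 3.58.1 in R 4.3.3 (eBayes with trend), two-sided, with Benjamini-Hochberg adjustment over all of them. The fit was also run on simulated data in which each gene had independent noise. Shifts shared by many genes of a library were not simulated, so that run does not vouch for the calls above. Gene copies were found with BLAST 2.17.0. The 40 genes and all lists were chosen with earlier results of these data known. FPKM per library is given for Myc, for each gene of the 40 with an adjusted p under 0.05 and, in role groups with none, for that with the largest absolute log2 fold change, with other values as examples. From each pathway list up to 3 rises and 3 falls past the test are named. The alternatives were another pseudocount (0.1), 2 other filters, 4 scalings, limma without trend, a replicate block, a correction for length and GC content, both together, and leaving out each library.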

Additional observations from a re-analysis of the deposited data

How the results depend on the processing

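Among the 40 genes, 5 were called higher and 1 lower as reported. The number called higher was 3 with no filter on low values, 3 without trend and 0 with libraries scaled to equal sums, and ranged from 0 (without WT replicate 2 or MSTN-KO replicate 1) to 9 (without MSTN-KO replicate 2). The number called lower was 0 with no filter, 0 without trend, 0 with scaling by the median of ratios and 2 at equal sums, and ranged from 0 to 2 with 1 library left out. The gene called lower was Nop16 instead of Gnl3 after quantile normalization, scaling by the percentile 75 and the length and GC correction with and without the block. The count past the study's criteria was 0 in every fit. Over all tested genes, equal sums gave 350 higher and 2367 lower, 12.9% of calls being higher instead of 49.5%, and scaling by the percentile 75 gave 38.8%. With 1 library left out these counts ranged from 423 to 1184 and from 606 to 1251. In the other pathway lists, called higher were 5 with no filter, 5 with scaling by the percentile 75, 3 at equal sums, 5 without trend, 21 with the length and GC correction, 19 with that correction and the replicate block, and 2 to 18 with 1 library left out. Called lower there were 1 with no filter, 20 at equal sums, 7 with the length and GC correction and 2 to 6 with 1 library left out. The median log2 fold change of the 40 genes was -0.055 at equal sums and 0.15 to 0.27 with 1 library left out, and its distance from that of all genes was 0.13 after quantile normalization. The cause of these changes was not tested, except that fewer libraries or more tested genes were part of the alternative.

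Single genes changed sign mostly where the fold change was small. At equal sums this held for Myc (-0.13), Polr1b (-0.019), Polr1e (-0.027), Rrn3 (-0.067), Taf1d (-0.25), Nop14 (-0.19), Wdr43 (-0.24), Rrp12 (-0.041), Bop1 (-0.0014), Pes1 (-0.042), Rrs1 (-0.25), Nip7 (-0.10), Npm1 (-0.17) and Ddx21 (-0.21). Scaling by the percentile 75 turned Taf1d (-0.061), Wdr43 (-0.044), Rrs1 (-0.047) and Ddx21 (-0.012), and quantile normalization Rrs1 (-0.021) and Npm1 (-0.087). The length and GC correction, with and without the block, turned Dkc1 (0.018), Wdr12 (0.14) and Rrs1 (-0.058). With 1 library left out the ranges that crossed zero were -0.14 to 0.25 for Taf1d, -0.35 to 0.25 for Dkc1, -0.034 to 0.14 for Nop14, -0.16 to 0.19 for Wdr43, -0.21 to 0.082 for Tsr1, -0.12 to 0.11 for Rrs1, -0.46 to 0.049 for Ncl, -0.054 to 0.32 for Npm1 and -0.039 to 0.20 for Ddx21.

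The labels do not say whether the replicate numbers pair the samples. The correlation of deviations between WT and MSTN-KO libraries of the same number was -0.015, -0.128 and -0.142. Between libraries of different numbers it was -0.069 to 0.161. With 3 libraries per group these values cannot decide whether samples were paired. With the replicate block, 4 of the 40 genes were called higher and 1 lower, Polr1a being no longer called (adjusted p = 0.0531 in limma), and 939 and 1001 of all tested genes were called. With 3 libraries per group and depth unknown, log2 differences of the size of a gene's standard error cannot be told from the spread between libraries.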

Other observations

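Many snoRNAs are cut from introns of genes for ribosome factors. In GENCODE M21, 29 snoRNA genes lie inside 8 of the 40 genes (20%), while 210 of all tested genes (1.94%) hold one. The 8 were Taf1d, Nop56, Nop58, Wdr43, Ncl, Gnl3, Tsr1 and Dkc1, of which 3 were higher and 5 lower in MSTN-KO, with a median log2 fold change of -0.09. The 32 genes without a snoRNA inside had a median of 0.24, with 26 higher and 6 lower. All 8 hosts were among the 20 genes of lower GC content, whose median was -0.03. Nop58 and Ncl were also on chromosome 1 and Gnl3 on chromosome 14. The part of GC content and chromosome in this difference was not tested. The snoRNAs themselves were not measured here.

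Among all 210 host genes, 37 were upregulated and 11 downregulated in limma at an adjusted p under 0.05, with a median of 0.05. Over all tested genes 8.78% were upregulated and 8.96% downregulated. The 29 hosts that encode ribosomal proteins were all higher in the FPKM as deposited, 24 of them past the test, with a median of 0.56. The 173 hosts that are neither ribosomal protein genes nor among the 40 had 12 calls upward and 10 downward, with a median of -0.03. Both were smaller shares than those of all tested genes, and 24 of the 37 upward calls were ribosomal protein genes.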
